A study of Mus musculus with 6 samples.

Results

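The heme-regulated kinase Eif2ak1, the stress transcription factor Atf4 and 8 genes of the Atf4 stress programme were followed in mouse fetal liver with and without Klf1, an erythroid Krüppel-like transcription factor. The 10 genes (Eif2ak1, Atf4, Ddit3, Asns, Trib3, Chac1, Psat1, Phgdh, Sesn2 and Ppp1r15a) were taken by platform symbol from 19937 genes measured by a probe set of their own. Whole livers of 3 Klf1-/- and 3 wildtype FVB/NJ embryos of embryonic day 13.5 were hybridised to 1 Affymetrix gene array each. The embryos came from timed matings of Klf1 +/- mice, the labels name no restriction of the mutation to a tissue, and each liver was dissociated into single cells before RNA was extracted. Values are log2 of the deposited intensity. Changes are Klf1-/- minus wildtype, ± the limma standard error unless SD is written. A gene was called where its p, adjusted by Benjamini-Hochberg over all 19937 genes, was under 0.05.

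Eif2ak1 encodes HRI, a kinase of red cell precursors that is held inactive by heme. When heme runs short it phosphorylates the initiation factor eIF2, which slows general translation, so that globin is not made without heme, and lets the Atf4 message be translated. Atf4 then raises genes of amino acid supply (Asns, Psat1, Phgdh), of stress signalling (Ddit3, Trib3, Chac1, Sesn2) and Ppp1r15a, the phosphatase subunit that reverses the phosphorylation. Because Atf4 is controlled largely at translation, its RNA level on an array does not measure the protein.

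The main pattern was a split within this set. The kinase Eif2ak1, Atf4 and the phosphatase subunit Ppp1r15a fell in Klf1-/- livers, the pseudokinase Trib3 rose, and the other 6 genes did not pass the test. Of the 10 members 1 was called higher and 3 lower, while calls were made in 19.1% of all genes, 10.8% higher and 8.26% lower in Klf1-/- livers. The groups did not overlap in 5 of the 10 members, against 37.5% of all genes. The members' median change was -0.13 and that of all genes -0.02. In whole livers, fewer cells of a kind and less RNA per cell cannot be told apart.

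Promoter sequence is shown for the genes that moved most and for the kinase, together with each member promoter that holds the Atf4 site. RefSeq sequence of GRCm38.p6 was matched by symbol for all 10 members, as windows of 250 bases before to 50 after a start, 2 windows in Psat1. The C/EBP-ATF response element, to which Atf4 binds with a partner, was searched as TGATGNAA on both strands. It was found in 3 of the 10 members, Trib3, Asns and Chac1, and in 3.97% of all 32851 windows. The sites are printed below in the direction of the gene with the match in capitals. The match of Trib3 begins at base 15 downstream of the start, that of Asns 23 bases upstream and that of Chac1 193 bases upstream.
Trib3 site, chr2:152344028-152344057, minus strand: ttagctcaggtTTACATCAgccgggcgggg
Asns site, chr6:7693214-7693243, minus strand: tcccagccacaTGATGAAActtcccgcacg
Chac1 site, chr2:119351038-119351067, plus strand: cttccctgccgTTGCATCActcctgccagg

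The changes of these 3 genes differed in size. Trib3 rose by 0.92, while Asns and Chac1 were not called, with changes of 0.20 and -0.15. The groups did not overlap in Asns, which was called under 2 other settings. Whether the site has a part in these changes was not tested. A looser form, TGATGNNAN, overlaps the first motif. It occurred in the same 3 members and in 14.4% of all windows.

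The 250 bases before the start are shown for Ppp1r15a, the gene that fell most, for Trib3, the gene that rose, and for Eif2ak1. In Ppp1r15a the capitals mark first the motif of Gata factors and then the cAMP response element. In Trib3 they mark the Klf motif on the opposite strand, where 2 overlapping matches run together. In Eif2ak1 they mark the CCAAT box and then the Klf motif. The letters of these motifs are given after the sequences.
Ppp1r15a, chr7:45526269-45526518, minus strand: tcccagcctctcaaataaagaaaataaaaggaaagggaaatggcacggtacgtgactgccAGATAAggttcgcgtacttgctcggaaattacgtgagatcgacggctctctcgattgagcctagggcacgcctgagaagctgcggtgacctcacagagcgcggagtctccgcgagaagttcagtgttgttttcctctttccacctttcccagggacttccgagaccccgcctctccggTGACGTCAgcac
Trib3, chr2:152344061-152344310, minus strand: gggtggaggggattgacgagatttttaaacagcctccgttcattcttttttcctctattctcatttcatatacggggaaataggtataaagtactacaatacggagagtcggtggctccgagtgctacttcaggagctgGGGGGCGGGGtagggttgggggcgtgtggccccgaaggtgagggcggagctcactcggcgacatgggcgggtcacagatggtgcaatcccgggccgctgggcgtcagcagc
Eif2ak1, chr5:143817542-143817791, plus strand: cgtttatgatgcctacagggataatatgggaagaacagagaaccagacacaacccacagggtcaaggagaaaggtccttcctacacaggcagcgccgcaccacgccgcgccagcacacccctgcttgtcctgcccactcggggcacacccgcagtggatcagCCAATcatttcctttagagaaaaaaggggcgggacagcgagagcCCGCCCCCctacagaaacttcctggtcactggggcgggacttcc

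Over both strands, the cAMP response element TGACGTCA was found in 1 of the 10 members, Ppp1r15a, and in 1.79% of all windows. The Gata motif AGATAA was found in 2 members, Ddit3 and Ppp1r15a, and in 11.2% of windows. The broad Klf motif CCNCNCCC was found in 8 members, all but Atf4 and Ppp1r15a, and in 49.5% of windows, while its stricter form CCACACCC was found in 0 members and 3.56% of windows. CCAAT was found in 7 members and 37.4% of windows. The E-box CACGTG, at 7.15% of windows, and the endoplasmic reticulum stress element, at 0.119%, were found in 0 members. These matches describe letters in a window and are not measured binding.

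The labels were first checked on the targeted gene. Klf1 read 9.05, 9.38 and 9.12 in Klf1-/- livers, against 10.59, 10.58 and 10.76 in wildtype livers. It was lower on every Klf1-/- array (limma adjusted p = 3.7e-06). The altered part of the gene is not named in the labels, and signal from outside it may remain. Array medians were 6.71 to 6.78 in log2, and the number of arrays limits the precision.

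Markers of the cells in the liver did not all keep their level. Over all genes, 10.8% were called higher and 8.26% lower. Of 12 erythroid markers measured 8 fell and 1 rose, and their summed intensity was 41747 to 48351 in Klf1-/- livers, against 61408 to 69952 in wildtype livers. The erythroid marker that rose was the embryonic globin gene Hbb-bh1, by 1.89 ± 0.10 (limma adjusted p = 5.9e-07), the largest change among these markers. The erythroid markers not called were Gata1, Hbb-y and Hba-x, with changes of -0.02, 0.11 and -0.40. Of 9 hepatoblast markers 2 fell, with sums of 57306 to 61930 in Klf1-/- and 59168 to 70566 in wildtype livers. All 6 megakaryocyte markers rose (18689 to 24374 against 14575 to 15331), as did 4 of 9 granulocyte markers (7172 to 9063 against 5628 to 6292) and 4 of 7 progenitor markers (3369 to 3788 against 2480 to 2592). The progenitor markers not called, Kit, Hoxa9 and Mecom, went the other way, by -0.16, -0.17 and -0.12. Kit was also counted among the mast cell markers. Of 12 macrophage markers 9 fell, with 4464 to 5086 in Klf1-/- and 6438 to 7894 in wildtype livers. Mast cell and mesenchymal markers had 0 called of 5 and 7 in limma (0 and 1 at an unadjusted p under 0.05), endothelial markers 1 higher of 7, and lymphoid markers 2 higher and 1 lower of 4. Some of these counts turned on 1 array or on the scaling. With 1 array left out, megakaryocyte rises numbered 5 to 6, macrophage falls 7 to 10 and progenitor rises 3 to 4. Granulocyte rises numbered 2 without Klf1-/- replicate 3 or wildtype replicate 3, and 6 without wildtype replicate 1. Hepatoblast falls numbered 0 without Klf1-/- replicate 2 or 3 or wildtype replicate 3, and 0 after quantile normalization. Endothelial rises numbered 4 without wildtype replicate 3 and 0 to 1 without any other, and mesenchymal falls 2 without wildtype replicate 1. Lymphoid rises numbered 1 without Klf1-/- replicate 1 or 2 or wildtype replicate 2 or 3. After quantile normalization lymphoid markers had 1 higher and 0 lower. The lymphoid fall was also lost without Klf1-/- replicate 3 or wildtype replicate 1 or 2. The part these shifts have in the changes below was not tested.

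**Figure D1:**
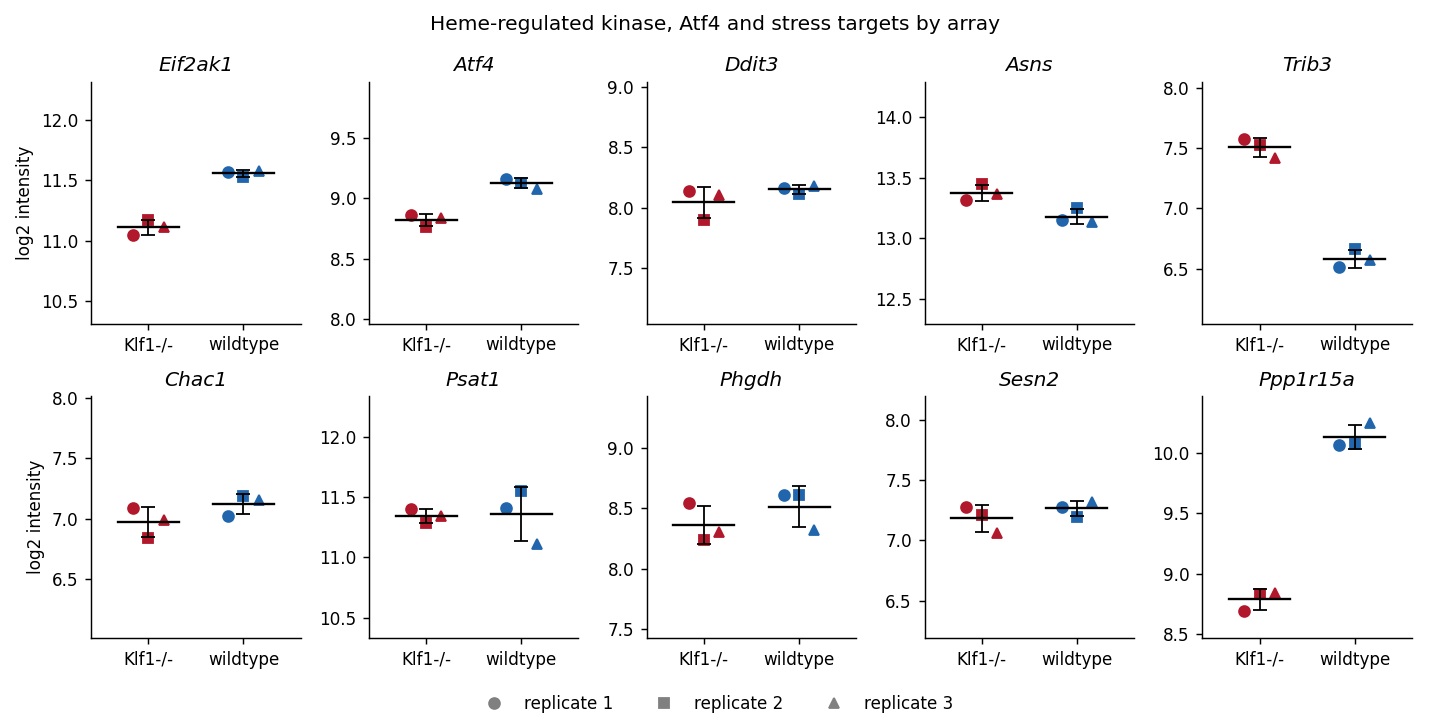
Log2 intensity (y axis) of the 10 genes on each array, Klf1-/- left and wildtype right, with a symbol per replicate, the mean as a line and the SD as an error bar (n = 3 per group). The y axes start at different levels but have the same span, so gaps between groups, but not heights, can be compared between genes. The groups are apart in Eif2ak1, Atf4, Asns, Trib3 and Ppp1r15a.

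Eif2ak1, the heme sensor at the head of the pathway, read 11.05, 11.17 and 11.12 in Klf1-/- livers, against 11.57, 11.53 and 11.58 in wildtype livers. Every Klf1-/- array lay below every wildtype array, and the spread within each group was far smaller than the gap. The gene fell by 0.45 ± 0.08 on the log2 scale (limma adjusted p = 0.0020), which puts wildtype 1.36-fold higher, with a 95% interval of the change from -0.61 to -0.28. Of all genes, 8.99% had a change as large or larger.

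The 4 kinases that phosphorylate eIF2 did not move alike. Eif2ak4, the amino acid sensor GCN2, read 8.63, 8.65 and 8.82 in Klf1-/- livers, against 8.23, 8.14 and 8.27 in wildtype livers. It rose by 0.49 ± 0.08 (limma adjusted p = 0.0023). The array difference Eif2ak1 minus Eif2ak4, which no centring of an array can alter, was 2.41 ± 0.11 in Klf1-/- and 3.35 ± 0.04 in wildtype livers (SD, n = 3). Eif2ak3, the endoplasmic reticulum kinase PERK, changed by 0.15 ± 0.08 and Eif2ak2, the double-stranded RNA kinase PKR, by 0.23 ± 0.15, and neither was called. Eif2ak2 stood at 9.10 in Klf1-/- replicate 2 and at 8.39 to 8.56 in the other Klf1-/- arrays, against 8.40 to 8.52 in wildtype livers.

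Genes whose pattern over the 6 arrays was most like that of Eif2ak1 were Itpripl1, Azin1, Mindy2, Stk10 and Xpo1, with Pearson r from 0.997 to 0.999. The value describes 6 arrays in 2 groups and was the highest among all genes, so r near 1 mostly reflects a shared group difference. Of these, 4 were called, with changes from -1.29 in Mindy2 to -0.60 in Azin1, the antizyme inhibitor of polyamine metabolism. Xpo1, a nuclear exporter, changed by -0.23 (limma adjusted p = 0.051) and was not called.

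Atf4, the transcription factor downstream of the kinases, read 8.86, 8.76 and 8.84 in Klf1-/- livers, against 9.16, 9.13 and 9.08 in wildtype livers. The groups did not overlap and the change was -0.30 ± 0.08 (limma adjusted p = 0.017; 95% interval -0.47 to -0.14). This is a fall of modest size, and 18.7% of all genes changed as much or more. The call was lost without Klf1-/- replicate 2 (limma adjusted p = 0.079), Klf1-/- replicate 3 (0.059) or wildtype replicate 2 (0.053), and with centring on housekeeping genes (0.057), while the change kept its sign and stayed between -0.35 and -0.26.

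Ppp1r15a, the stress-induced eIF2 phosphatase subunit GADD34, changed most. It read 8.69, 8.83 and 8.84 in Klf1-/- livers, against 10.07, 10.08 and 10.25 in wildtype livers. The lowest wildtype array stood above the highest Klf1-/- array by more than a full log2 unit, and the gene fell by 1.34 ± 0.09 (limma adjusted p = 1.8e-06; 2.54-fold higher in wildtype). A change as large was seen in 0.813% of all genes.

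Its constitutive counterpart behaved otherwise. Ppp1r15b, the phosphatase subunit made without stress, averaged 9.79 in Klf1-/- and 9.80 in wildtype livers, a change of -0.01 ± 0.07. Within each array, Ppp1r15a minus Ppp1r15b was -1.07, -0.96 and -0.97 in Klf1-/- livers, against 0.24, 0.32 and 0.44 in wildtype livers. The difference is in relative signal of 2 probe sets and does not give their relative abundance.

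Of 14 measured genes of the eIF2 and eIF2B machinery and its phosphatases, 1 rose, 1 fell (Ppp1r15a) and 12 were not called. The share called was 14.3%, below the 19.1% of all genes. Eif2b5, the catalytic subunit of the exchange factor eIF2B, rose by 0.46 ± 0.08 (limma adjusted p = 0.0029). It read 9.75, 9.87 and 9.74 in Klf1-/- livers, against 9.35, 9.40 and 9.21 in wildtype livers. The list median was -0.01.

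Trib3, a pseudokinase induced by Atf4 and Ddit3 that binds Akt and Atf4, was the member that rose. It read 7.58, 7.52 and 7.41 in Klf1-/- livers, against 6.51, 6.66 and 6.57 in wildtype livers. All 3 Klf1-/- arrays stood above all 3 wildtype arrays, and the rise was 0.92 ± 0.08 (limma adjusted p = 2.0e-05; 95% interval 0.74 to 1.10). This is 1.90-fold, a size reached by 1.94% of all genes. Trib3 minus Atf4 within an array was -1.32 ± 0.09 in Klf1-/- and -2.54 ± 0.09 in wildtype livers (SD, n = 3).

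The other stress effectors were not called. Ddit3, the transcription factor CHOP, read 8.14, 7.90 and 8.10 in Klf1-/- livers, against 8.16, 8.11 and 8.18 in wildtype livers. Its change was -0.11 ± 0.09 (limma adjusted p = 0.42), with an interval from -0.30 to 0.08. Klf1-/- replicate 2 was the low array, replicate 3 lay just below the lowest wildtype array, and replicate 1 lay within the wildtype range.

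Chac1, which degrades glutathione, read 7.09, 6.84 and 6.99 in Klf1-/- livers, against 7.02, 7.18 and 7.15 in wildtype livers, a change of -0.15 ± 0.09 with an interval from -0.34 to 0.05. Sesn2, a leucine-sensing inhibitor of mTORC1, read 7.28, 7.21 and 7.06 in Klf1-/- livers, against 7.28, 7.19 and 7.32 in wildtype livers, a change of -0.08 ± 0.08 with an interval from -0.27 to 0.11. Both overlapped between groups (limma adjusted p = 0.28 and 0.54). The intervals of Ddit3, Chac1 and Sesn2 all end below the lower bound of the Trib3 interval.

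Trib3, Chac1 and Sesn2 were also the dimmest members, near the middle of all genes in mean level (50.2%, 50.2% and 52.7% of genes at or below). Asns was at the other end, brighter than 99.8% of genes, where changes can be compressed.

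Among the amino acid genes, Asns, the asparagine synthetase, read 13.31, 13.45 and 13.37 in Klf1-/- livers, against 13.15, 13.25 and 13.14 in wildtype livers. The groups did not overlap, but the change of 0.20 ± 0.08 was not called (limma adjusted p = 0.11; 95% interval 0.02 to 0.37). It was called after quantile normalization (adjusted p = 0.043) and with a trended, robust variance model (adjusted p = 0.035).

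The serine branch showed no called change. Phgdh, its first enzyme, read 8.54, 8.24 and 8.30 in Klf1-/- livers, against 8.61, 8.61 and 8.32 in wildtype livers, a change of -0.15 ± 0.11 with an interval from -0.39 to 0.09. Psat1, the second enzyme, read 11.40, 11.29 and 11.34 in Klf1-/- livers, against 11.41, 11.55 and 11.11 in wildtype livers. Its change was -0.01 ± 0.11 with an interval from -0.25 to 0.23, and its sign turned under several settings. Wildtype replicate 3 was the lowest wildtype array in both.

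Psph, the third enzyme of the branch and no member, averaged 8.87 ± 0.11 in Klf1-/- livers (SD, n = 3) and read 9.13, 9.18 and 8.88 in wildtype livers, again with wildtype replicate 3 lowest. Without that array Phgdh changed by -0.25 (limma adjusted p = 0.14) and Psat1 by -0.13 (0.32), still not called. A further probe set that lists Phgdh together with Gm6756 read 9.14, 9.21 and 9.15 in Klf1-/- livers, against 9.12, 9.35 and 8.85 in wildtype livers. It was left out of the fit, and whether Gm6756 adds to the signal of the single-gene probe set was not tested.

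**Figure D2:**
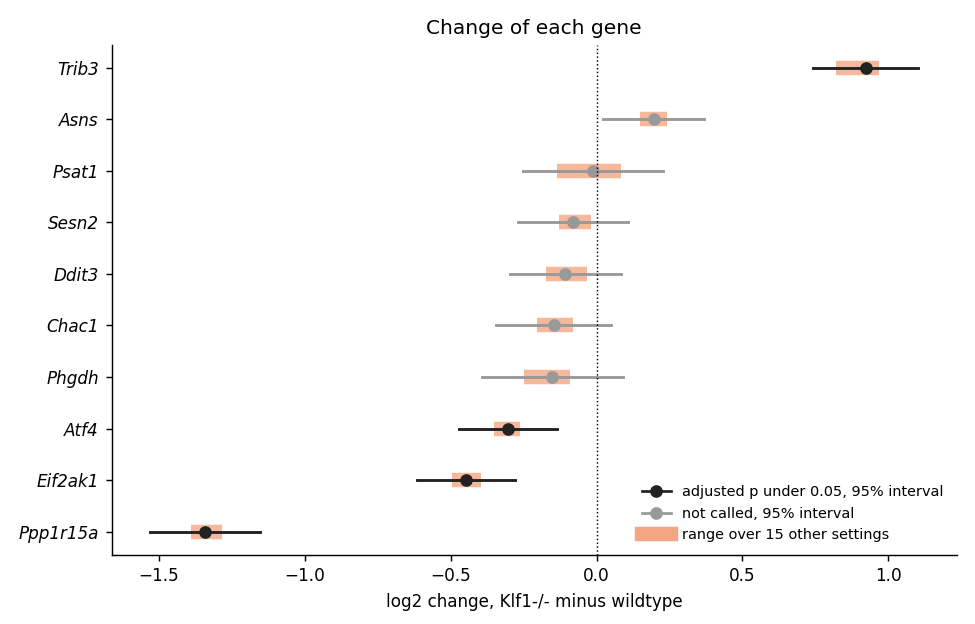
Log2 change, Klf1-/- minus wildtype (x axis), of each gene (rows), with the 95% interval of the limma fit as a line, called genes in black and the range over 15 other settings as a broad bar. Trib3 lies at 0.92 and Ppp1r15a at -1.34, while the intervals of Psat1, Sesn2, Ddit3, Chac1 and Phgdh cross 0.

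Wider lists of Atf4 targets, which include 8 of the members, were counted in the same fit. Of 56 measured genes 11 rose (19.6%) and 5 fell (8.93%), with a median change of -0.01. Without the members 10 of 48 rose and 4 fell, so that 29.2% were called, against 19.1% of all genes. The calls were uneven between the lists, so the pooled share does not describe each of them. With members included, 80.0% of amino acid transporters were called and 28.6% of stress and growth control targets. The shares were 16.7% in amino acid synthesis and one-carbon metabolism and 0 of 13 in the aminoacyl-tRNA synthetases.

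Amino acid transporters changed most often and in both directions, with 4 of 10 higher, 4 lower and 2 not called, and a median of -0.10. Slc1a5, the glutamine transporter, read 9.08, 9.18 and 9.22 in Klf1-/- livers, against 11.24, 11.38 and 11.59 in wildtype livers, and fell by 2.24 ± 0.10 (limma adjusted p = 1.3e-07). Slc6a9, the glycine transporter that feeds heme synthesis in red cell precursors, read 11.77, 11.85 and 11.95 in Klf1-/- livers, against 12.55, 12.70 and 12.94 in wildtype livers, and fell by 0.87 ± 0.11. Slc7a1, an arginine transporter, fell by 0.70 ± 0.09.

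Other transporters of the same list rose. Slc7a3, another cationic amino acid transporter, read 7.60, 7.22 and 7.21 in Klf1-/- livers, against 6.01, 6.87 and 6.06 in wildtype livers. Its rise was 1.03 ± 0.20 (limma adjusted p = 0.0050), and wildtype replicate 2 stood well above the other wildtype arrays. Slc7a11, the cystine importer that supplies glutathione synthesis, rose by 0.82 ± 0.11. One of the 4 rises, that of Slc7a6, was lost under 5 of 15 other settings, 75th percentile centring (adjusted p = 0.056) and the omission of Klf1-/- replicate 2 or 3 or wildtype replicate 1 or 2 (up to 0.12).

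**Figure D3:**
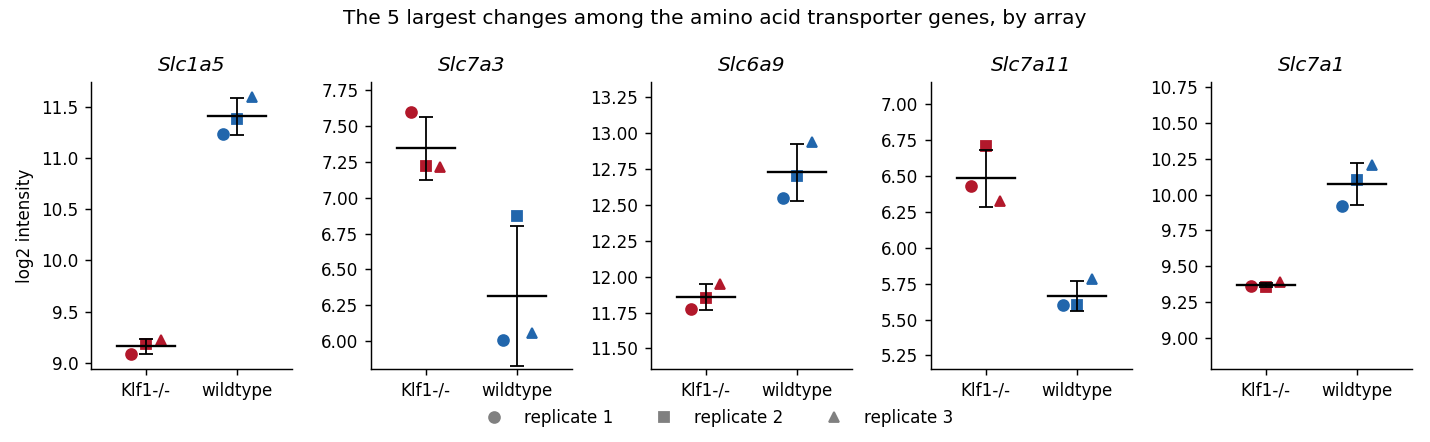
Log2 intensity (y axis) on each array of the 5 amino acid transporter genes with the largest changes, Klf1-/- left and wildtype right, with mean and SD (n = 3 per group). The y axes start at different levels, and that of Slc1a5 has a wider span, so heights cannot be compared between genes. Slc1a5, Slc6a9 and Slc7a1 are lower and Slc7a3 and Slc7a11 higher on all Klf1-/- arrays.

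Of 21 stress and growth control targets, 5 rose, 1 fell (Ppp1r15a) and 15 were not called. Stc2, the secreted glycoprotein stanniocalcin, read 8.83, 8.35 and 8.30 in Klf1-/- livers, against 7.22, 7.40 and 7.12 in wildtype livers, a rise of 1.25 ± 0.14 (limma adjusted p = 9.3e-05). Besides Trib3, Vldlr, a lipoprotein receptor, rose by 0.51 ± 0.12 and Eif4ebp1, a translation repressor controlled by mTORC1, by 0.49 ± 0.10. Stc2, Trib3, Vldlr and Eif4ebp1 kept their call under all 15 other settings, while Sqstm1, the fifth rise, lost it without Klf1-/- replicate 3 (adjusted p = 0.060).

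Of 12 genes of amino acid synthesis and one-carbon metabolism 2 rose and 10 were not called. Aldh18a1, the first enzyme of proline synthesis, rose by 0.47 ± 0.09 (limma adjusted p = 0.0053) and Mthfd2, a mitochondrial folate enzyme, by 0.36 ± 0.08 (limma adjusted p = 0.011). Of 13 aminoacyl-tRNA synthetase genes, which charge tRNAs with amino acids, 0 were called in limma and 0 had an unadjusted p under 0.05. Their changes ran from -0.16 to 0.14. The 2 with the smallest p were Mars1, at -0.16 ± 0.07, and Wars, at 0.14 ± 0.09.

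The other arms of the unfolded protein response, run by Atf6 and Xbp1, had 0 of 19 genes higher and 1 lower in limma, with 4 at an unadjusted p under 0.05 and changes from -0.35 to 0.23. Thus 5.26% were called, against 19.1% of all genes. The call was Dnajb11, an endoplasmic reticulum cochaperone, at -0.28 ± 0.08 (limma adjusted p = 0.036), and it was lost under 7 of 15 other settings, among them every array left out but wildtype replicate 2, with adjusted p up to 0.11. The mitochondrial list, with the protease Oma1 and the relay protein Dele1 that can activate the heme-regulated kinase in human cells, had 1 of 7 higher. That is 14.3%, near the 10.8% of all genes called higher. Oma1 read 8.88, 9.02 and 8.92 in Klf1-/- livers, against 8.67, 8.52 and 8.48 in wildtype livers, and rose by 0.39 ± 0.08 (limma adjusted p = 0.0085), while Dele1 changed by -0.04 ± 0.08 and was not called.

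Of 13 measured genes of heme supply, synthesis and sensing, 7 were lower and 3 higher, with a median of -0.26. Over all genes 8.26% were lower and 10.8% higher. The largest change in the list was in Flvcr1, the heme exporter, which rose by 1.38 ± 0.10. The largest falls in the list were those of Slc25a38, at -1.06 ± 0.08, Abcb10, Alas2 and Alad. Alas2 was also counted among the erythroid markers. Hmox1, the heme-degrading enzyme, was also called higher. It read 9.73, 9.68 and 9.80 in Klf1-/- livers, against 9.31, 9.49 and 9.50 in wildtype livers, a rise of 0.30 ± 0.08 (limma adjusted p = 0.029). The Hmox1 call was lost with 75th percentile centring (adjusted p = 0.064) and without any 1 Klf1-/- array or wildtype replicate 1 (adjusted p from 0.058 to 0.12). Alas1, another of the rises, lost its call without Klf1-/- replicate 2 (adjusted p = 0.062) or 3 (0.077), so that without either of these arrays 1 of the 3 rises, that of Flvcr1, kept its call. Cpox, among the falls, lost its call under 8 of 15 other settings, with adjusted p up to 0.14. Heme itself was not measured.

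**Figure D4:**
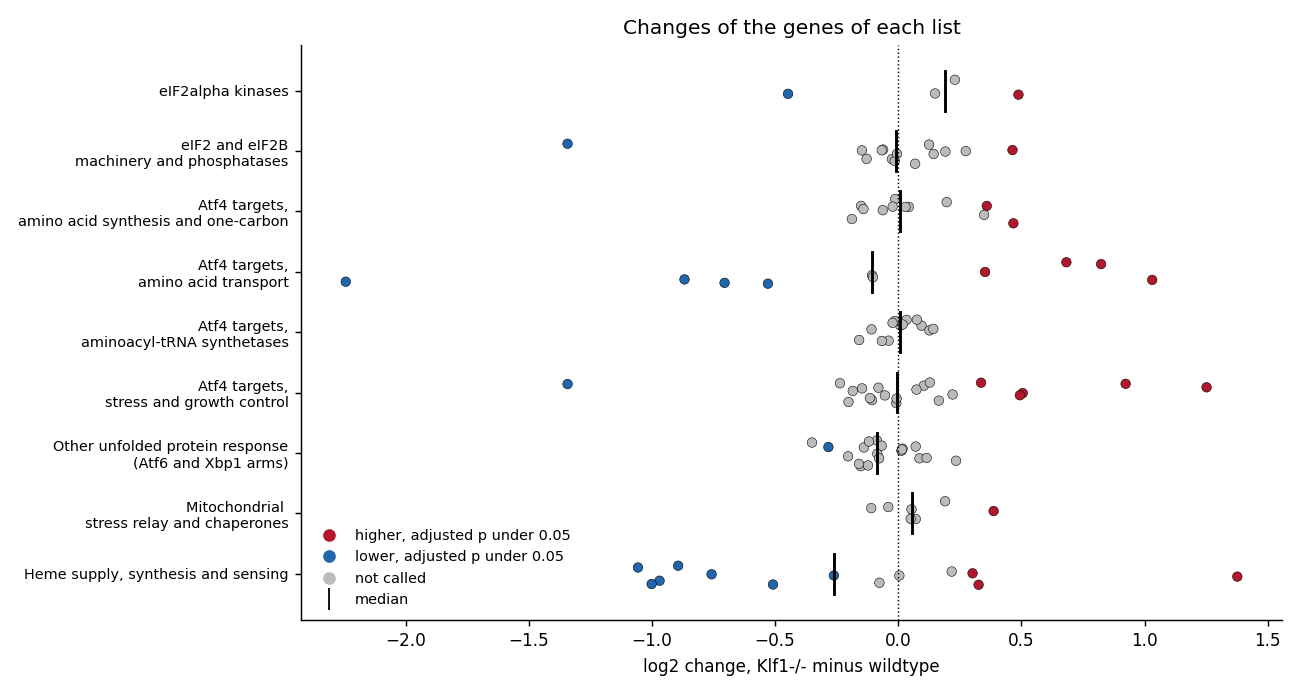
Log2 change, Klf1-/- minus wildtype (x axis), of each measured gene (points) in the 9 lists (rows), coloured by call, with the list median as a black bar. Genes that stand in 2 lists appear in both. Amino acid transporters spread to both sides, from -2.24 to 1.03, while the aminoacyl-tRNA synthetases lie between -0.16 and 0.14.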

How the data were processed

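RNA of 3 Klf1-/- and 3 wildtype whole fetal livers was measured on 6 one-colour arrays, grouped by their titles. The authors deposited 1 intensity per probe set and array. Per the submitters' processing notes it came from RMA, run in version 1.8.6 of Affymetrix Power Tools; upstream annotation is not given in the sources used here. Because RMA equalises the arrays, a change in total RNA cannot be seen. Values ran from 5.60 to 27245, a linear scale, and were taken to log2.

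The platform table gave 1 gene for 21640 of 34760 probe sets, several for 1321 and none for 11799. The brightest single-gene probe set stood for a gene; each member had 1. Genotypes were compared in limma 3.58.1 (R 4.3.3; lmFit, eBayes, 2-sided, no covariate). An exact permutation test of 3 against 3 cannot go below p = 0.10 and was not used. Whether embryos shared a litter is unknown, so p-values reflect the spread between these embryos.

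The members and lists were chosen with earlier results of these data known. Named genes were the members, Klf1, up to 5 called genes with the largest change per list (the 2 smallest p where none was called) and the 5 genes most like Eif2ak1. Psph, Ppp1r15b, Dele1, the uncalled kinases, Hmox1, Alas1, Cpox, Slc7a6 and Sqstm1 were named after values were seen. So were Hbb-bh1 and the uncalled erythroid and progenitor markers. Motifs and within-array differences were also chosen after values were seen. Listed genes without a probe set of their own, Pycr1, Aars, Gdf15 and Eif2s1 among them, were not analysed here.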

Additional observations from a re-analysis of the deposited data

How the results depend on the processing

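Alternatives were quantile normalization, 75th percentile centring, 16 added before log2, dim genes left out, the mean of probe sets, a trended and robust variance model, array weights, a replicate block, leaving out each array, and, added after the data were seen, centring on 10 housekeeping genes. Eif2ak1, Trib3 and Ppp1r15a kept direction and call under all 15. Leaving out dim genes, the mean of probe sets, the trended model and the replicate block cannot alter a member's change, only its p. Calls lost by Atf4 and gained by Asns are given with those genes. Members called higher numbered 2 after quantile normalization and with the trended model, and 1 with any array left out; members called lower numbered 2 to 3 with 1 array left out. Psat1 changed sign, to 0.040 after quantile normalization and 0.028 with housekeeping centring, and ran from -0.134 to 0.083 with 1 array left out. The members' median lay between -0.18 and -0.09 with 1 array left out. All genes called ran from 2409 (without Klf1-/- replicate 2; 2414 without Klf1-/- replicate 3) to 3749 with 1 array left out. Of all calls 43.2% were lower, 55.5% with 75th percentile centring and 29.4% with housekeeping centring. In the list of the other unfolded protein response 2 genes were lower after quantile normalization, 3 with 75th percentile centring, 0 with housekeeping centring and 0 to 1 with 1 array left out. In the wider Atf4 lists 9 to 11 genes rose and 5 fell with 1 array left out. Same-numbered arrays did not deviate together (r = -0.16, -0.22 and 0.18 for numbers 1, 2 and 3), and only number 3 correlated best with its own, so they were not taken as pairs; with a replicate block 3498 genes were called, with 1 member higher and 3 lower. Each member has a single probe set of its own, so no second one was tested. The values give no detection call, which limits what can be said of dim genes.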
